A study of Mus musculus with 14 samples.

Results

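The 5 genes described here, H2-Eb1, H2-Aa, H2-Ab1, Cd74 and Ciita, belong to the MHC class II antigen presentation pathway. They were chosen by the measured rise of H2-Eb1 in a mouse cell line reverted from the primed to the naive pluripotent state, out of 24015 gene symbols with read counts. Values of the reverted line against epiblast stem cells are therefore given for these genes as a description, with no test. RNA was measured in 14 libraries, 2 in each of 7 groups, which the series text describes as biological duplicates. Embryonic stem cells (ESC, CD1/JF1) were grown with LIF on feeder cells, and epiblast stem cells (EpiSC, CD1/JF1) with bFGF. MM401 blocks Mll1, a histone-methylating enzyme. For conversion, EpiSC of the CD1/JF1 genotype received it at 100 µM together with LIF for 3 days (MM401 day 3) or for 6 days, to passage 2 (MM401 P2). Reverted cells (rES), kept in LIF and, after passage 3, at 25 µM MM401, were sampled at passage 6, at passage 30, and at passage 30 without MM401. The rES libraries carry the genotype label CD1-deltaTSIX/JF1, so the line and its state cannot be told apart in any comparison of rES with another group. The labels do not say how many clones the rES line came from. All groups share a mixed CD1 and JF1 background, and class II genes are among the most polymorphic of the mouse, whereas the counts rest on the reference build mm9. The part of allele differences in these counts was not tested.

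MHC class II molecules are pairs of an alpha and a beta chain that display peptides from endosomes to CD4 T cells. H2-Aa and H2-Ab1 encode the alpha and beta chains of the I-A molecule, and H2-Eb1 encodes the beta chain of I-E. Cd74 encodes the invariant chain, which guides new class II pairs to endosomes, and Ciita encodes the coactivator that switches class II genes on. CIITA binds no DNA itself and is held at class II promoters by factors bound to the X box (the RFX complex and CREB) and the Y box (NF-Y, which binds CCAAT). Class II genes are best known from dendritic cells, B cells, macrophages and thymic epithelium, and in other cells after interferon gamma.

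The promoters are shown because an X and Y arrangement is known from class II promoters, while the counts of the 5 genes, given further on, did not move as a unit. The RefSeq windows of build GRCm38.p6, 250 bases before to 50 bases after each gene's start, held 9 windows on chromosome 17 for 8 of 12 class II genes. There was none on this chromosome for H2-Ab1, Cd74 or Ciita, so the promoters of these genes were not searched. The 9 windows were searched on both strands for CCAAT, which reads ATTGG on the other strand. They were also searched for GCAAC, letters common in the X box, and for GCAAC followed after 10 to 40 bases by ATTGG. The pair was found in 5 of the 9 windows, on the strand of the gene in each, and in 1.43% of all 32851 windows of 300 bases. CCAAT alone was in 37.4% and GCAAC alone in 35.2% of all windows. The 5 windows with the pair were those of H2-Eb1, H2-Aa, H2-Eb2, H2-Oa and H2-Ob, with 25 to 28 bases between the motifs. The windows of H2-DMa, H2-DMb1 and H2-DMb2 did not hold these letters in this order. In H2-Eb1 the pair began 91 and 59 bases before the start. The stretch around the pair reads as follows, 5′ to 3′ on the strand of the gene, with GCAAC and ATTGG in capitals.
H2-Eb1: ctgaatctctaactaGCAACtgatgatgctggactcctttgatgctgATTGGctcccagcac
H2-Aa: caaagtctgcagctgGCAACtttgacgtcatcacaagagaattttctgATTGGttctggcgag
H2-Eb2: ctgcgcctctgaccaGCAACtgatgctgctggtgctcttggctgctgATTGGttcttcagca
H2-Oa: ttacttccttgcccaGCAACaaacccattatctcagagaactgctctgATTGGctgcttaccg
H2-Ob: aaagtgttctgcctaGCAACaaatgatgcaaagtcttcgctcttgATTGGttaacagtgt
These come from windows at chr17:34305617-34305916, plus strand (H2-Eb1), chr17:34287774-34288073, minus strand (H2-Aa), chr17:34325425-34325724, plus strand (H2-Eb2), chr17:34092129-34092428, plus strand (H2-Oa) and chr17:34238655-34238954, plus strand (H2-Ob). The whole H2-Eb1 window holds a further CCAAT downstream of the pair and is given for context with the same capitals.
H2-Eb1: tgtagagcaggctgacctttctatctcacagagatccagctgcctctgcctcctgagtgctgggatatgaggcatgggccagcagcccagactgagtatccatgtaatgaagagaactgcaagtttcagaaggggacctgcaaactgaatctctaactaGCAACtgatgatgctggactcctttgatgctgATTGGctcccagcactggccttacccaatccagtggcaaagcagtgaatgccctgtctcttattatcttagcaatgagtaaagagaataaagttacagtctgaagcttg

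Total counts were 20831588 to 23677089 in the libraries of EpiSC, ESC and rES, 113221270 and 116086115 at day 3, and 74952496 and 80383376 at P2. Levels are therefore compared as CPM, the count of a gene scaled to library size with TMM. The ribosomal RNA precursor Rn45s was at 20580 CPM in rES passage 30 replicate 2 and at 5529 CPM in its replicate 1. Naive markers checked the labels: the summed level of 6 such genes (among them Tfcp2l1 and Klf4) was 483 and 471 CPM in EpiSC, 2738 and 2727 in ESC and 3703 to 4167 across rES passage 6 and 30. All 5 primed markers fell and the 3 shared pluripotency markers rose in rES passage 30 against EpiSC (38.3% and 38% of all genes). All 5 class II genes passed the filter on low counts, Ciita through rES and 1 ESC library alone. Tests are edgeR quasi-likelihood F tests on all 14 libraries over 16247 genes, two-sided. Every adjusted p is a Benjamini-Hochberg value from that test, and rose or fell means that it was under 0.05. Log2 fold changes are printed ± SE.

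H2-Eb1, the I-E beta chain gene, had its lowest level in EpiSC and its highest in the 3 rES groups. It was at 0.653 and 0.537 CPM in the EpiSC libraries (16 and 13 counts). At MM401 day 3 it was at 14.6 and 14.7 CPM, and at P2 at 6.77 and 7.01 CPM. ESC had 16.7 and 16.8 CPM. The rES libraries had 46.1 and 51.0 CPM at passage 6, 42.7 and 46.0 CPM at passage 30, and 51.8 and 56.3 CPM at passage 30 without MM401. No libraries overlapped between groups, but the rES means next to each other in this order differed by less than their summed SDs. As a description, H2-Eb1 in rES passage 30 exceeded EpiSC by 6.21 on the log2 scale, the rank 55 of 16247 genes, and ESC by 1.41. The summed level of the naive markers was likewise lower at P2 (1982 and 1869 CPM) than at day 3 (2969 and 2939 CPM).

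**Figure D1:**
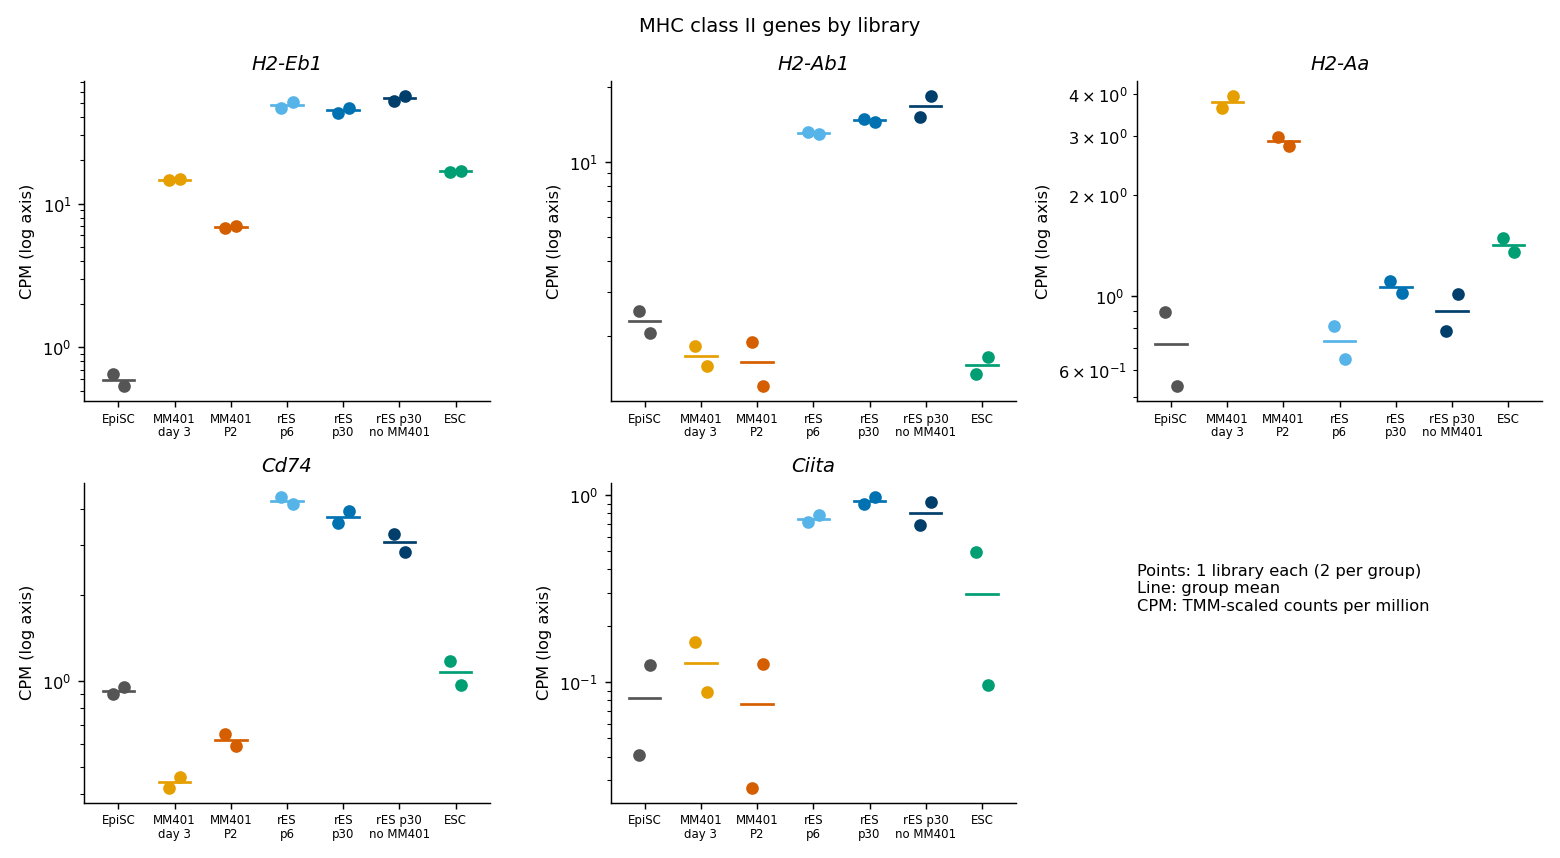
CPM of the 5 class II genes in each of 14 libraries (points, log axis that differs between panels) with the group mean (line). H2-Eb1 is above its EpiSC level in every other group, H2-Ab1 and Cd74 stand apart in the 3 rES groups, and H2-Aa is highest at MM401 day 3.

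H2-Ab1, the I-A beta chain gene, was high in the rES libraries alone. It was at 2.53 and 2.06 CPM in EpiSC, 1.82 and 1.51 at day 3, 1.89 and 1.25 at P2, and 1.40 and 1.64 in ESC. The rES libraries had 13.2 and 13.0 CPM at passage 6, 14.9 and 14.5 at passage 30, and 15.2 and 18.5 at passage 30 without MM401. No library outside rES reached the lowest rES library. Its alpha chain partner H2-Aa had another order. H2-Aa was at 0.897 and 0.537 CPM in EpiSC, 3.62 and 3.96 at day 3, 2.98 and 2.80 at P2, and 1.49 and 1.35 in ESC. In rES it was at 0.814 and 0.650 CPM at passage 6, 1.11 and 1.02 at passage 30, and 0.785 and 1.01 without MM401. The rES libraries thus held less H2-Aa than those of day 3, P2 and ESC, and their range overlapped that of EpiSC.

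Cd74, the invariant chain gene, was also highest in the rES libraries, but in another order among them than H2-Ab1. It was at 0.897 and 0.949 CPM in EpiSC, 0.421 and 0.461 at day 3, 0.651 and 0.590 at P2, and 1.18 and 0.966 in ESC. The rES libraries had 4.41 and 4.16 CPM at passage 6, 3.58 and 3.94 at passage 30, and 3.28 and 2.84 without MM401, all above every other library. Ciita, the coactivator gene, was near the limit of detection outside rES. It had 1 and 3 counts in EpiSC, 18 and 10 at day 3, 2 and 10 at P2, and 11 and 2 in ESC, against 15 to 21 counts in each rES library. In CPM this was 0.693 to 0.973 over the 6 rES libraries and 0.0271 to 0.497 elsewhere. Exons of Ciita overlap those of Dexi on the opposite strand in GENCODE M21, so without strand the reads of both genes cannot be told apart. Dexi was at 9.91 CPM in EpiSC, 8.30 in rES passage 30 and 8.19 in ESC. In rES passage 30 against EpiSC the log2 differences were 2.68 (H2-Ab1), 0.57 (H2-Aa), 2.02 (Cd74) and 3.46 (Ciita, or 4.42 without EpiSC replicate 2). Against EpiSC the differences at passage 6 and without MM401 were 2.51 and 2.87 for H2-Ab1, and 0.02 and 0.32 for H2-Aa. Of the 5 genes 4 were past the threshold in each of these comparisons, beside 76.3% of all genes (38% higher, 38.3% lower) at passage 30, 73.8% at passage 6 and 76.5% without MM401. Nothing is read from those counts.

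The first question is whether the class II genes moved while EpiSC were being converted. The rule did not use these comparisons. They share the EpiSC libraries with the described rise of H2-Eb1 in rES, as does ESC against EpiSC. The p-values of H2-Eb1 against EpiSC are therefore not independent of the choice. At MM401 day 3 against EpiSC, H2-Eb1 rose by 4.62 ± 0.16 on the log2 scale (adjusted p = 2.93e-26) and H2-Aa by 2.40 ± 0.25 (adjusted p = 2.57e-11). H2-Ab1 (-0.46 ± 0.20, adjusted p = 0.0347) and Cd74 (-1.06 ± 0.31, adjusted p = 0.00252) fell, and Ciita was not called (0.60 ± 0.93, adjusted p = 0.559). Thus 4 of 5 passed the test, beside 76.6% of all genes: 2 higher (38.7% of all genes) and 2 lower (37.9%). The fall of H2-Ab1 was not called without EpiSC replicate 1 (adjusted p = 0.313) or MM401 day 3 replicate 2 (0.164), or in a fit of the 4 libraries compared (0.0712). No library labelled as LIF medium without MM401 at these times was analysed here, so the medium and the inhibitor cannot be told apart.

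At P2 the I-E beta chain gene was still above EpiSC and had dropped back from day 3. H2-Eb1 was 3.53 ± 0.18 above EpiSC (adjusted p = 2.82e-20) and H2-Aa 2.00 ± 0.26 above it (adjusted p = 5.23e-09). H2-Ab1 was lower (-0.56 ± 0.21, adjusted p = 0.0158), but not without EpiSC replicate 1 (0.199) or MM401 P2 replicate 2 (0.235). Cd74 (-0.57 ± 0.31, adjusted p = 0.0921) and Ciita (-0.07 ± 1.03, adjusted p = 0.951) were not called. With scaling to total counts Cd74 was called lower (-0.72, adjusted p = 0.0338). So 3 of 5 passed, where 75.9% of all genes did. From day 3 to P2, H2-Eb1 fell by 1.09 ± 0.07 (adjusted p = 2.43e-16) and H2-Aa by 0.39 ± 0.16 (adjusted p = 0.0325). The latter was not called by DESeq2 (adjusted p = 0.128), nor without MM401 day 3 replicate 2 (0.129), P2 replicate 1 (0.0508) or P2 replicate 2 (0.123). In this comparison 2 of 5 class II genes and 70.8% of all genes passed. The 2 MM401 groups share the EpiSC controls in the comparisons above.

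The embryonic stem cells, grown without MM401, had a high level of H2-Eb1 and a low level of H2-Ab1. Their naive markers all rose against EpiSC, but of 5 primed markers 3 fell and 1 rose, Fgf5 being at 21.1 against 7.61 CPM. In ESC against EpiSC, H2-Eb1 rose by 4.81 ± 0.17 (adjusted p = 8.67e-26). H2-Aa rose by 0.98 ± 0.32 (adjusted p = 0.00614), or by 0.66 and uncalled without EpiSC replicate 2 (adjusted p = 0.114). H2-Ab1 was lower (-0.60 ± 0.26, adjusted p = 0.036), a call lost without EpiSC replicate 1 (0.218), ESC replicate 1 (0.186) or ESC replicate 2 (0.0544). Cd74 did not pass (0.22 ± 0.34, adjusted p = 0.574), nor did Ciita (1.84 ± 0.96, adjusted p = 0.0812), whose ESC libraries differed from each other (0.497 and 0.0966 CPM). The difference of Ciita was 2.56 without ESC replicate 2, and it was called in a fit without the deeper MM401 libraries (adjusted p = 0.0443). Ciita entered the test through rES and 1 ESC library alone, so that call is no support for a difference. In all 3 of 5 passed, against 74.5% of all genes.

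Against ESC the rES line had more of the I-A beta chain and invariant chain transcripts. H2-Ab1 was higher in rES passage 30 by 3.27 ± 0.20 (9.68-fold, adjusted p = 4.55e-18) and Cd74 by 1.80 ± 0.28 (3.49-fold, adjusted p = 4.34e-07). At passage 6 these differences were 3.11 ± 0.20 (adjusted p = 4.49e-17) and 1.99 ± 0.28 (adjusted p = 4.94e-08), and without MM401 they were 3.47 ± 0.20 (adjusted p = 4.75e-19) and 1.51 ± 0.29 (adjusted p = 1.49e-05). Both genes were therefore higher than in ESC in each of the 3 rES groups, which share the same ESC libraries. Ciita entered the test through rES and 1 ESC library alone, so its calls against ESC are no support for a difference. It was called at passage 30 (1.62 ± 0.62, adjusted p = 0.019), but not without ESC replicate 2 (0.90, adjusted p = 0.254), rES passage 30 replicate 1 (0.0561) or replicate 2 (0.0652). It was called without MM401 (adjusted p = 0.0472), though not by DESeq2 (0.072) or without ESC replicate 2 (0.401), replicate 1 (0.0643) or replicate 2 (0.19) of the MM401-free group. At passage 6 it was not called (0.0678), but was in a fit of the 4 libraries compared (0.0194) and without ESC replicate 1 (0.0144). H2-Aa was not called at passage 30 (-0.41 ± 0.30, adjusted p = 0.223) or without MM401 (-0.67 ± 0.32, adjusted p = 0.0587), and was lower at passage 6 (-0.96 ± 0.33, adjusted p = 0.00926), but not without rES passage 6 replicate 2 (0.086) or ESC replicate 1 (0.0563). Of all genes 71.1% passed at passage 30, 69.3% at passage 6 and 71.4% without MM401, with 4 of 5 class II genes counted in each, H2-Eb1 among them as a description.

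The next question is whether long culture or removal of the inhibitor changed these genes. Between passage 6 and passage 30 none of the 5 was called, at an adjusted or an unadjusted p under 0.05 by edgeR (0 of 5 also by DESeq2), where 25.6% of all genes were called. The approximate 95% interval of the log2 difference was -0.27 to 0.01 for H2-Eb1, -0.11 to 0.44 for H2-Ab1, -0.64 to 0.27 for Cd74, -0.13 to 1.23 for H2-Aa and -0.71 to 1.34 for Ciita. Those intervals are narrow for H2-Eb1 and H2-Ab1 and wide for H2-Aa and Ciita, whose counts are few. Without MM401 at passage 30, H2-Eb1 was higher by 0.29 ± 0.07 (1.22-fold, adjusted p = 0.00283), the only one of the 5 called, against 19.7% of all genes. That call was lost without rES passage 30 replicate 1 (adjusted p = 0.0913) or without replicate 2 of the MM401-free group (0.0853). H2-Ab1 (0.19, interval -0.08 to 0.46), Cd74 (-0.30, interval -0.77 to 0.18), H2-Aa (-0.25, interval -0.91 to 0.40) and Ciita (-0.22, interval -1.24 to 0.81) were not called. All of these libraries carry the same genotype label. The reverted line entered the choice of H2-Eb1, so the p-values of H2-Eb1 between rES groups are not independent of that choice.

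Scaled to exonic length (GENCODE M21), the chains of a class II pair were far from equal in rES. In rES passage 30, H2-Eb1 was at 26.6 ± 1.40 CPM per kb (SD, n = 2), H2-Ab1 at 12.1 ± 0.25, Cd74 at 2.66 ± 0.18 and H2-Aa at 0.944 ± 0.055. The ratio of H2-Ab1 to H2-Aa per kb, beta to alpha chain of I-A, was 12.5 to 18.6 in the 6 rES libraries. It was 2.62 and 3.58 in EpiSC, 0.356 to 0.588 at day 3 and P2, and 0.874 and 1.13 in ESC. The alpha chain gene of I-E, H2-Ea, is listed as H2-Ea-ps and is annotated as a polymorphic pseudogene. It had 0 to 2 counts in every library but those of day 3 (11 and 6), 0 in both libraries of P2 and of ESC. A count of 0 allows up to 3 counts, 0.136 CPM in ESC replicate 1 and 0.145 in ESC replicate 2, as counting error alone. No rise of this alpha chain gene beside H2-Eb1 was detectable in rES at this depth.

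**Figure D2:**
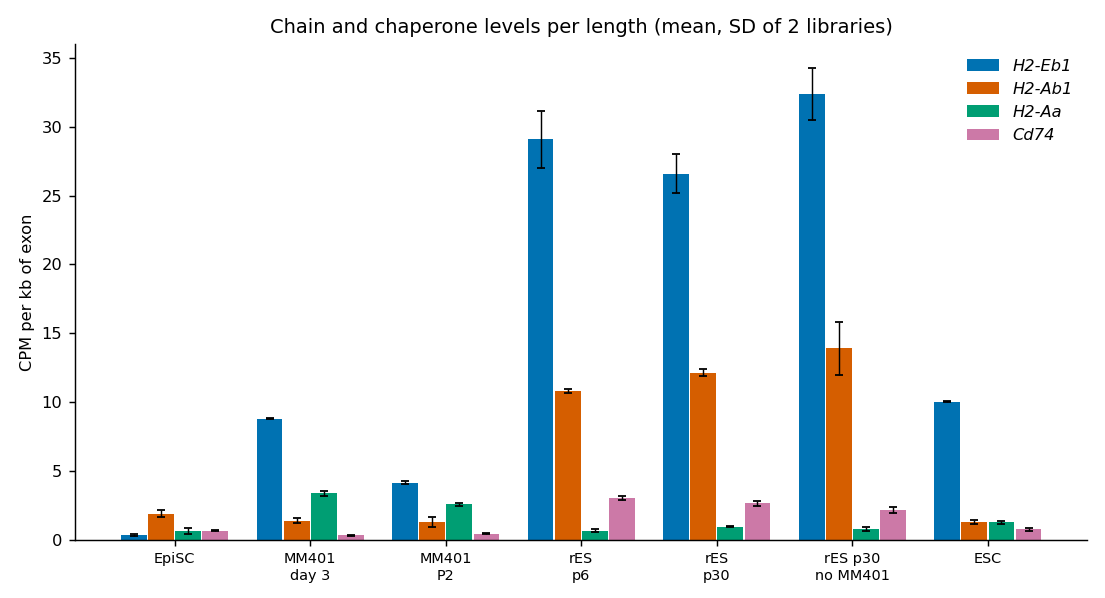
CPM per kb of exon for H2-Eb1, H2-Ab1, H2-Aa and Cd74 in the 7 groups (bars, mean of 2 libraries; error bars, SD). H2-Eb1 reaches 26.6 and H2-Ab1 12.1 in rES passage 30, where H2-Aa stays at 0.944.

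The other class II chains are considered next. Of 7 listed, 5 were tested. In rES passage 30 against EpiSC none rose by edgeR's test (38% of all genes did), 2 fell and 3 were not called, with a median log2 fold change of -0.27 against -0.02 over all genes. In a fit of the 4 libraries compared, and in a fit without the deeper MM401 libraries, 1 was called higher, as was 1 at passage 6. H2-DMa, a chain of the peptide exchange factor DM, fell from 6.75 to 2.90 CPM (-1.22 ± 0.18, adjusted p = 2.03e-07), and H2-DMb2 fell as well (-2.43 ± 0.65, adjusted p = 0.00105). H2-DMb1 was at 2.36 and 3.29 CPM (adjusted p = 0.065), and H2-Oa, of the DM inhibitor DO, at 1.21 and 1.02 CPM (adjusted p = 0.558). H2-Eb2, the nearest relative of H2-Eb1, was at 0.431 and 0.828 CPM (adjusted p = 0.115). Against ESC, H2-Eb2 (2.31 ± 0.67) and H2-Oa (1.61 ± 0.53) were higher in rES passage 30, at levels near 1 CPM. Reads shared between such related genes may have been split or dropped by the counting, so these values are uncertain.

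Genes that supply class II peptides had no shared direction over the rES groups against EpiSC, whereas against ESC most were lower. Of 7 tested in rES passage 30 against EpiSC, 1 rose and 4 fell, beside 38% and 38.3% of all genes, whereas 3 rose and 2 fell at passage 6. Ctss, the protease that trims the invariant chain in antigen-presenting cells, fell from 25.9 to 4.22 CPM (-2.61 ± 0.12, adjusted p = 6.2e-22). Ctsb (-0.31 ± 0.04), Ctsd (-0.25 ± 0.03) and Lgmn (-0.12 ± 0.04), lysosomal proteases of many cells, fell slightly, and Ifi30, a lysosomal thiol reductase, rose from 53.9 to 68.0 CPM (0.33 ± 0.05). Ctsl (-0.07 ± 0.04) and Cd83, which stabilises class II at the surface (0.27 ± 0.44), were not called. In ESC against EpiSC all 7 rose (37% of all genes did), with a median of 0.54. Against ESC, 6 of the 7 were lower in rES passage 30, 7 at passage 6 and 6 without MM401, and none was higher. The medians were -0.77, -0.53 and -0.8, where 71.1%, 69.3% and 71.4% of all genes were called in either direction.

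The factors that bind class II promoters were present in every group. Their summed level over 9 genes was 352 to 420 CPM in the 14 libraries. Of these, 3 rose and 4 fell in rES passage 30 against EpiSC, near the shares over all genes (38% and 38.3%), with a median of -0.01. Nfya, a subunit of NF-Y, rose from 69.8 to 111.5 CPM (0.68 ± 0.05, adjusted p = 1.2e-14) and Nfyb, another subunit, fell (-0.40 ± 0.05). Rfx5, of the RFX complex, was at 23.9 CPM in both groups (-0.01 ± 0.09), while Rfxap (-0.34 ± 0.10) and Rfxank (-0.32 ± 0.10) fell. Creb1 fell (-0.58 ± 0.06), and Atf1, its relative, rose (0.46 ± 0.06). Against ESC, 4 of the 9 were higher in rES passage 30 and 4 lower, with a median of 0.06, where 71.1% of all genes were called. Rfx5 (1.35 ± 0.10) and Rfxap (0.79 ± 0.11) were among the 4 that were higher.

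Most transcripts listed for interferon gamma signalling, the usual inducer of Ciita in cells that do not present antigen, rose at P2. Of 10 tested genes 3 rose and 4 fell in rES passage 30 against EpiSC, near the 38% and 38.3% of all genes. The receptor genes Ifngr1 (-0.74 ± 0.10) and Ifngr2 (-0.90 ± 0.08) fell. Jak1 (0.38 ± 0.04), Irf1 (0.61 ± 0.06) and Prdm1, a repressor of Ciita in plasma cells (1.65 ± 0.09), rose. Ifng itself was not tested. It had 5 and 0 counts at rES passage 6, 2 and 0 at passage 30, 0 and 1 without MM401, 1 and 0 in EpiSC, and 0 in the other libraries. At P2 against EpiSC 8 of 10 rose, beside 42.1% of all genes, among them Socs1, a feedback inhibitor of the pathway (2.10 ± 0.12). In those P2 libraries H2-Eb1 and H2-Aa were above EpiSC by 3.53 and 2.0 on the log2 scale, with H2-Eb1 below its day 3 level. H2-Ab1 was lower, a call lost with some single libraries left out, and Cd74 and Ciita were not called. Feeder fibroblast markers rose in the P2 libraries too (14 of 15), and their part was not tested.

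Genes of MHC class I presentation, which shows peptides of the cytosol, were mostly lower than in EpiSC at rES passage 30 and at MM401 day 3. Of 15 tested class I genes 11 fell and 1 rose in rES passage 30 against EpiSC, with a median of -0.83, where 38.3% of all genes fell. At passage 6, 7 fell, 3 rose and 5 were not called, with a median of -0.14. Without MM401, 11 fell and 1 rose, with a median of -0.76. At day 3, 11 fell and 3 rose (median -0.55), beside 37.9% and 38.7% of all genes. In ESC, 8 fell and 5 rose (median -0.26), where 74.5% of all genes were called. The heavy chain genes H2-K1 (81.6 to 30.7 CPM, -1.41 ± 0.06) and H2-D1 (55.5 to 30.7 CPM, -0.86 ± 0.06) fell, and so did the peptide transporter genes Tap1 (-2.33 ± 0.13) and Tap2 (-1.39 ± 0.11). The light chain gene B2m fell by 0.41 ± 0.06, and Tapbp, which links the transporter to class I, rose (0.71 ± 0.05). Nlrc5, the class I counterpart of Ciita, was not called (-0.06 ± 0.22, adjusted p = 0.82). At P2, where class II was not raised beyond H2-Eb1 and H2-Aa, 11 of 15 class I genes rose, B2m by 1.52 ± 0.05, beside 42.1% of all genes. Feeder fibroblast markers rose there too (14 of 15), and their part in the P2 values was not tested.

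Most markers of blood cells, which include the main carriers of class II, were lower in rES than in EpiSC. Of 16 tested blood cell markers 12 fell in rES passage 30 against EpiSC and 2 rose (38.3% and 38% of all genes), with a median of -2.38. Their summed level was 341.6 and 346.3 CPM in rES passage 30. It was 384.6 and 383.5 CPM at passage 6, 314.1 and 308.2 without MM401, and 624.5 and 634.4 in EpiSC. Outside rES it was also low at day 3 (362.0 and 354.6 CPM), with 487.3 and 497.0 CPM at P2 and 531.7 and 541.3 in ESC. In EpiSC Lyz2, a macrophage and granulocyte gene, was at 433 CPM and the macrophage genes Itgam and Emr1 at 49.9 and 19.6 CPM. These were at 53.9, 2.96 and 1.05 CPM in rES passage 30, and the pan-leukocyte gene Ptprc went from 3.10 to 0.691 CPM. The B cell gene Ms4a1 had 0 counts in every rES library, which allows up to 3 in each. The 2 that rose were Laptm5 (39.6 to 253.5 CPM, 2.68 ± 0.04) and Cd79a, a B cell receptor gene (0.369 to 1.70 CPM, 2.20 ± 0.44). In bulk RNA, fewer cells of a type and less RNA per cell cannot be told apart, and the part of these cells in the class II counts was not tested.

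The summed level of feeder fibroblast markers was lower in each rES group than in any other group. Of 15, 13 fell in rES passage 30 against EpiSC and none rose by edgeR's test, nor at an unadjusted p under 0.05. Of all genes 38.3% fell and 38% rose. Their summed level was 4619 and 4629 CPM, against 8781 and 8826 in EpiSC, 9359 and 9298 at day 3, 13110 and 13050 in ESC and 21820 and 21360 at P2. At passage 6, 9 fell and 3 rose, where 73.8% of all genes were called. Within rES the level was 7519 and 7513 CPM at passage 6, 4619 and 4629 at passage 30, and 3850 and 3943 without MM401. H2-Eb1 was at 46.1 and 51.0 CPM, 42.7 and 46.0 CPM, and 51.8 and 56.3 CPM in these groups. The part of feeder cells in the class II counts was not tested. Of 4 tested endothelial markers 3 rose in rES passage 30 against EpiSC, beside 38% of all genes. They were led by Pecam1 (29.8 to 226.5 CPM), which naive stem cells also express. The endothelial cadherin gene Cdh5 fell from 1.35 to 0.454 CPM. Of 5 epithelial markers, thymic genes included, 2 rose and 3 were not called, near the 38% of all genes that rose. The risers were Aire (1.97 to 69.4 CPM) and Foxn1 (0.0619 to 0.414 CPM), and 1 was called without rES passage 30 replicate 2 or without EpiSC replicate 1. The keratin genes Krt5 and Krt14 were at 0.134 and 0.213 CPM in rES passage 30.

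**Figure D3:**
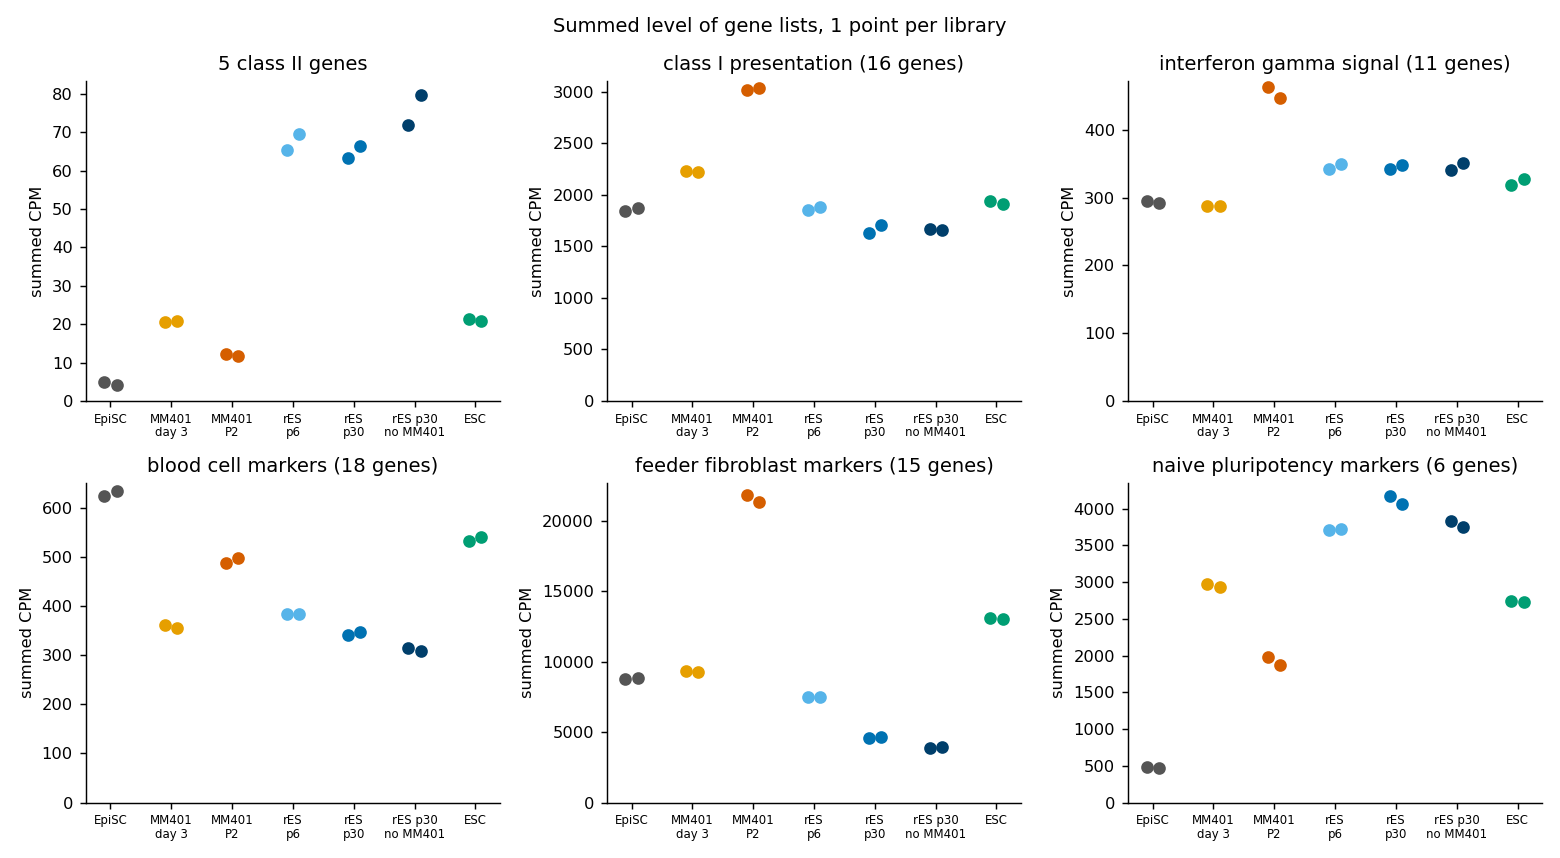
Summed CPM of 6 gene lists in each of 14 libraries (points; axes start at 0 and differ between panels). The 5 class II genes are highest in the rES libraries, where blood cell and feeder markers are below their EpiSC level, and class I genes are highest at MM401 P2.

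H2-Eb1 lies in the class II segment of the MHC, so the genes beside it were examined in the RefSeq gene order (GRCm38.p6, used for order alone). Of 10 genes on each side, 14 were tested, H2-Ab1 and H2-Aa among them. In rES passage 30 against EpiSC 7 fell and 3 were higher, beside 38.3% and 38% of all genes. H2-Ab1 is 1 of those 3 and is a description there. The fallers Tap1, Tap2, Psmb8 and Psmb9 lie between H2-DMb1 and H2-Ob. On the other side Btnl1, a butyrophilin-like gene, was at 0.0816 and 0 CPM in EpiSC and at 2.6 and 2.38 CPM in rES passage 30 (61 and 49 counts). It was at 2.54 and 2.56 CPM at passage 6, but at 0.226 and 0.387 CPM in ESC, 0.0366 and 0.0797 at day 3, and 0.0543 and 0.251 at P2. Btnl1 was thus high in the rES libraries, as H2-Ab1 was. It passed the filter on low counts through rES alone, so its levels are a description. Notch4, a Notch receptor gene, had the other order and rose in ESC (1.69 ± 0.06), day 3 (2.12 ± 0.05) and rES passage 30 (2.12 ± 0.06) against EpiSC. In rES passage 30 the segment thus held a run of lower genes, from H2-DMa to Tap2 with H2-DMb1 not called, beside genes that were higher. That run was not particular to rES. At day 3 against EpiSC 9 of the 14 were lower and 2 higher, beside 37.9% and 38.7% of all genes. In ESC 7 were lower and 4 higher, where 74.5% of all genes were called and 37% were higher. Within the run, Psmb8 (0.205 ± 0.142, adjusted p = 0.189) and H2-DMb1 were not called in ESC. At day 3 and in ESC the lower genes included H2-Ab1 and Gpsm3, which lie outside the run.

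**Figure D4:**
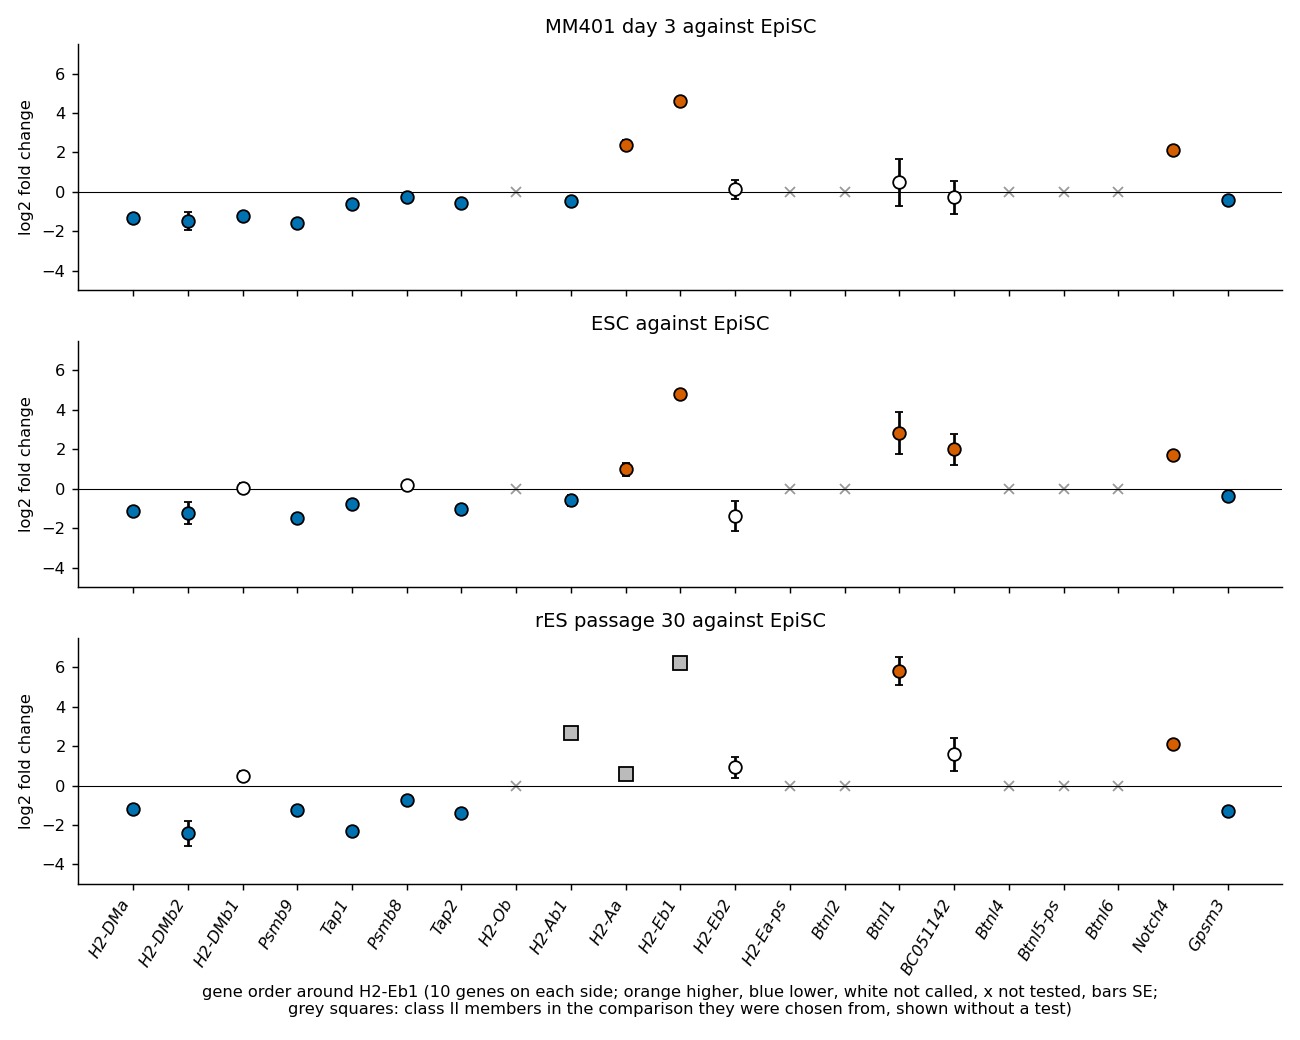
Log2 fold change against EpiSC (vertical axis; bars, SE) of H2-Eb1 and 10 genes on each side in gene order, for MM401 day 3, ESC and rES passage 30. Orange points were called higher, blue lower, white not called, crosses were not tested, and grey squares are the class II genes shown without a test. H2-Eb1 is high in each panel, H2-Aa in the first, and H2-Ab1 and Btnl1 stand out with it in rES passage 30. Btnl1 passed the filter through rES alone, so its point is a description.

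The genes whose level over the 14 libraries was most like that of H2-Eb1 were found by Pearson's r of log2 CPM, among genes of at least 10 CPM in 1 group or more. These points share libraries and group structure, and r is a description. The nearest was Islr2 (r = 0.996), at 2.13 CPM in EpiSC, 21.4 at day 3, 11.7 at P2, 27.8 in ESC and 58.0 in rES passage 30. Usp48 (0.995), Slc39a4 (0.994), Klf9 (0.993), Cited2, Mccc1, Sun1 and Gm6083 (0.992 each) followed. None of the 8 lies among the 20 neighbours of H2-Eb1 or in the lists of class II genes. Of the other class II genes, r with H2-Eb1 was 0.765 for Ciita, 0.648 for H2-Ab1, 0.618 for Cd74 and -0.004 for H2-Aa. Taken over the group means instead, r was 0.957 for Ciita, 0.956 for H2-Ab1, 0.911 for Cd74 and -0.471 for H2-Aa. How closely Ciita, H2-Ab1 and Cd74 followed H2-Eb1 thus depended on the measure.

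**Figure D5:**
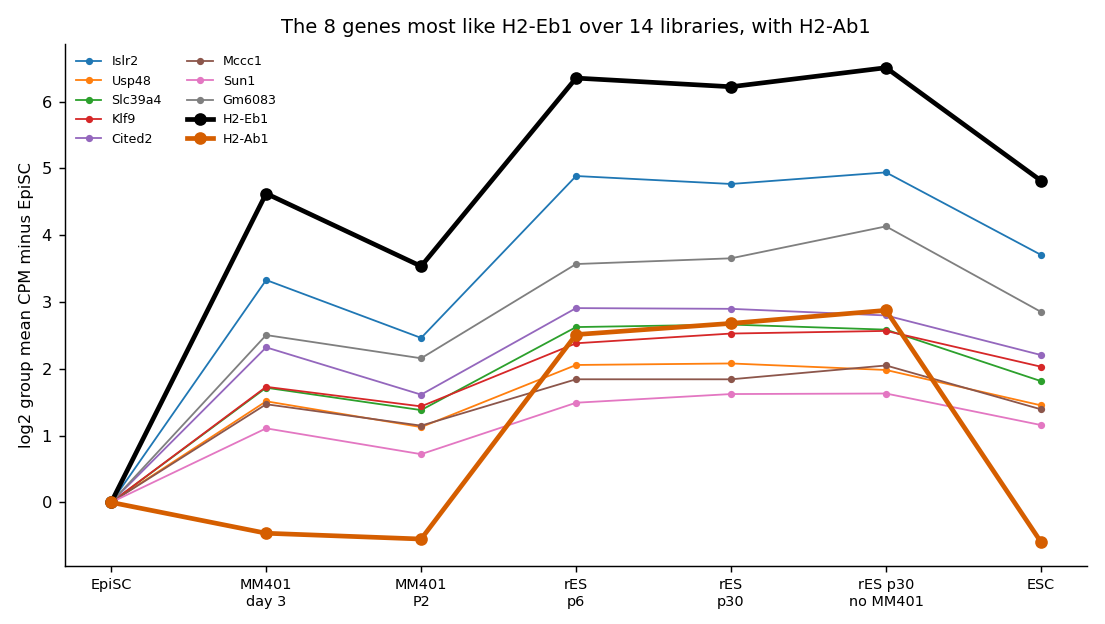
Log2 group mean CPM minus its EpiSC value (vertical axis) across the 7 groups for H2-Eb1, the 8 genes most like it and H2-Ab1. The 8 genes rise at day 3, dip at P2 and peak in rES with H2-Eb1, whereas H2-Ab1 is above its EpiSC level in the 3 rES groups alone.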

How the data were processed

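All values come from raw counts of single-end reads per gene symbol (24015 symbols), deposited by the authors as whole numbers. TopHat2, Subread, DESeq and mm9 are named, without versions or roles, per the submitters' processing notes. Strandedness and the treatment of multi-mapped reads are unknown here. Unused were 2 columns that fit no label, while 27 names had been turned into dates (at most 0.254% of a library's counts), March1 and March8 among them. Genes were kept with filterByExpr (16247), scaled with TMM and tested in edgeR 4.0.16 (R 4.3.3; quasi-likelihood F test, robust, 1 mean per group, all 14 libraries). Calls are at a Benjamini-Hochberg adjusted p under 0.05 within each of 12 comparisons. The standard error is the absolute log2 fold change divided by the square root of F, and approximate 95% intervals are 1.96 standard errors to each side. Nothing says that duplicates were separate cultures, so p-values reflect only how these libraries varied, which may be technical. The members, gene lists and tests were chosen with earlier results of these data known. Named genes are the 5 members, up to 4 called genes per list by smallest adjusted p (further list genes were chosen after their values were seen), all class II chains, the 20 neighbours and the 8 genes most like H2-Eb1. Each result was recomputed with RLE size factors, with total counts, without the filter, with DESeq2 1.42.0, on only the 4 libraries of a comparison, with the replicate number as a block, with single libraries removed and, added after the data were seen, a fit without the 4 deeper libraries and a 2-fold threshold. The pipeline was tested on simulated data. Promoter windows come from RefSeq (GRCm38.p6), and exonic lengths from GENCODE M21.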

Additional observations from a re-analysis of the deposited data

Results flagged for a closer look

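H2-Eb1 and H2-Aa differed between the 2 time points of MM401 treatment, by the test of the difference itself. H2-Eb1 was lower at P2 than at day 3 (log2 fold change -1.09), and so was H2-Aa (-0.39). The fall of H2-Aa was lost in 4 of the alternatives named in the report. Feeder fibroblast markers had a summed level of 9359 and 9298 CPM at day 3 and 21820 and 21360 CPM at P2, and their part in both differences was not tested.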

How the results depend on the processing

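No direction called for a class II gene was reversed under any alternative run. Counts of class II genes called stayed within 1.5 times of those given, except as follows. From day 3 to P2, 1 was called by DESeq2 and 1 with the 2-fold threshold, and 1 to 2 with a library left out. Without MM401 against with it, 0 passed the 2-fold threshold and 0 to 1 were called with a library left out. In ESC against EpiSC, 1 passed the 2-fold threshold. Left-out libraries gave 2730 to 3508 of all genes called between passage 6 and 30 (4167 with all), and 2003 to 2767 without MM401 against with it (3203 with all). Adding a 2-fold threshold left 5195 (rES passage 30), 4657 (passage 6), 5277 (without MM401), 4523 (ESC), 4450 (day 3) and 4461 (P2) genes against EpiSC. It left 2566 from day 3 to P2, 410 between passages and 44 without against with MM401. Against ESC it left 3779 (passage 30), 3361 (passage 6) and 3909 (without MM401). Scaling to total counts moved the median of all genes in rES passage 30 against EpiSC from -0.02 to -0.17 and the share of called genes that were higher from 49.8% to 40.4% (day 3, 50.6% to 38.6%, and P2, 55.5% to 45.3%). RLE size factors gave 54.3% higher in place of 43.9% between passages, and total counts 33.3%. Replicate numbers are shared by the groups, but same-numbered libraries did not deviate together (r -0.031 to 0.04 over 21 pairs of groups). With the number as a replicate block 12370 genes were called in rES passage 30 against EpiSC (12397 without), and Ciita was not called in rES without MM401 against ESC (adjusted p = 0.0513). The block changed no other call of a class II gene. Of the 8 genes most like H2-Eb1, 7 were among the nearest 8 with a prior count of 0.5. Depth limits Ciita, at most 21 counts in any library.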

Other observations

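Genes with an H2 symbol, the 3 class II genes H2-Eb1, H2-Ab1 and H2-Aa included, moved in both directions. Of 44 such symbols 9 had 0 counts in all 14 libraries and 26 passed the filter. In rES passage 30 against EpiSC 6 were higher and 13 lower, beside 38% and 38.3% of all genes. H2-Eb1 and H2-Ab1 are among those 6 and are a description there. H2-M5, a class I-like gene chosen after its values were seen, was at 3.16 CPM in EpiSC, 28.1 at day 3, 18.3 at P2, 20.9 in ESC and 32.6 in rES passage 30, high in the groups in which H2-Eb1 was high. H2-M10.4, chosen in the same way, had 0 counts in the 2 EpiSC and 2 ESC libraries, 9 to 28 counts in each rES library, and 2 and 0 at day 3 and 0 and 6 at P2. It was at least 18.8-fold higher in rES passage 30 than in EpiSC and at least 16.5-fold higher than in ESC, against a floor of 3 counts over the group. Floors cover counting error only, and H2-M10.4 belongs to a family of close copies, so its reads are uncertain.

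Aire, which encodes the factor that lets thymic epithelium express genes of other tissues, was abundant for a gene of that tissue. It was at 1.97 CPM in EpiSC, 9.44 at day 3, 0.694 at P2, 87.4 in ESC, and 70.8, 69.4 and 57.1 CPM in the 3 rES groups. It rose in rES passage 30 against EpiSC by 5.14 ± 0.11 (edgeR adjusted p = 2.78e-34), while Foxn1, the thymic epithelial regulator, was at 0.414 CPM.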
